A study of Mus musculus with 24 samples.

Results

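The genes for the proteins of the cytosolic ribosome were followed in lungs of wild-type and Marfan mice that had received sildenafil or vehicle. Members were genes whose symbol in the platform annotation is Rpl or Rps, then a number and at most 1 further letter, with the Rps6k kinase genes left out. The rule took 57 of the 19505 genes measured, 35 of them named for the large subunit (Rpl) and 22 for the small subunit (Rps). Of the 57, 51 code for standard ribosomal proteins and are called core members here, and 6 are paralogs or a pseudogene (Rpl3l, Rpl10l, Rpl39l, Rpl32l, Rps27l and Rps4l, the last listed by RefSeq as a transcribed pseudogene). Each gene had 1 probe set. Standard ribosomal protein genes without a probe set under such a symbol are not members; 4 of them with other names (Rpsa, Fau, Rplp0 and Rplp1) are given at the end as a list of their own.

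Expression was measured on Affymetrix arrays in whole lungs taken when the mice were 6 months old. There were 6 arrays of wild-type mice on vehicle, 4 of wild-type mice on sildenafil, 5 of Marfan mice on vehicle and 5 of Marfan mice on sildenafil. A further 4 arrays, titled as failing quality control, held no values and were not used. Sildenafil, an inhibitor of the cyclic GMP phosphodiesterase PDE5, was supplied through the drinking water, starting at 6 weeks and ending at 6 months of age. The labels put that same treatment sentence on the vehicle samples, so groups were taken from the titles. They name the model only as Marfan; the sources used here do not give its allele, the strain, the sex or the vehicle. Since no label ties arrays to separate animals, the p-values rest on the spread among these arrays, which may be technical. Array numbers run in blocks that follow the groups, so an effect of array order and an effect of group cannot be told apart.

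A ribosome holds a single copy of nearly every one of these proteins, and cells that grow or secrete transcribe the genes together at high level. Their messages mostly begin with a stretch of pyrimidines (a TOP element) through which the kinase mTOR and the RNA-binding protein LARP1 control their translation. Unassembled members such as Rpl5 and Rpl11 bind Mdm2 and so link ribosome assembly to p53.

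Because the core members moved together in these arrays (below), the promoter windows of some of them are shown first: Rps7, Rpl37, Rpl11, Rpl14 and Rpl35 were among the members with the lowest p in a comparison, Rpl41 is added for a word farther from its start, and the testis paralog Rpl10l for contrast. RefSeq (GRCm38.p6) gave windows of 300 bases, from 250 before to 50 after the annotated start, for 40 of the 51 core members and 5 of the other 6. The word CCGGAAG, the core of many ETS-family binding sites, was found on either strand in 17 of these 40 core members (42.5%), in 37.3% of 67 mitochondrial ribosomal protein genes and in 9.93% of all 27025 genes of the table. A start at C followed by at least 4 more C or T bases, the form of a TOP element, was listed for 11 of the 40 core members (27.5%), for 0 of the 67 mitochondrial ones and for 3.01% of all genes. GGGCGG, the GC box of Sp1-type factors, was in 55% of the core members, 49.3% of the mitochondrial ones and 38.2% of all genes. AAGATGGC, the core of YY1 sites, was in 3 core members (7.5%), 17.9% of the mitochondrial ones and 3.19% of all genes. TATAAA was searched on the gene's own strand from 40 to 15 bases before the start. It was in 0 of the 40 core members, 0 of the 67 mitochondrial ones and 2.41% of all genes. The other words were searched on both strands, and overlaps between them were not removed. The windows below run from 80 bases before the start through 20 bases from it, written 5′ to 3′ on the gene's strand. Those of Rps7 (chr12:28635934-28636033, minus strand), Rpl37 (chr15:5116533-5116632, plus strand), Rpl11 (chr4:136053374-136053473, minus strand) and Rpl41 (chr10:128549149-128549248, minus strand) hold the ETS word in capitals.
Rps7: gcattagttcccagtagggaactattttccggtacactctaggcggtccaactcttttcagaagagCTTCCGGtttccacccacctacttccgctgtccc
Rpl37: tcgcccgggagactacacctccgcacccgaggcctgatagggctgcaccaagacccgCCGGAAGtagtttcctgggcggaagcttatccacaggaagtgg
Rpl11: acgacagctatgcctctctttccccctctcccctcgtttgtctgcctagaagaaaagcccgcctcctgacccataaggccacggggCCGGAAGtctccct
Rpl41: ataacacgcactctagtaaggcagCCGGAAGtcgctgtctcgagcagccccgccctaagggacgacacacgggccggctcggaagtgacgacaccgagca
The word begins at position -14 in Rps7, -23 in Rpl37, 6 in Rpl11 and -56 in Rpl41, with the first transcribed base counted as 0. The windows of Rpl14 (chr9:120571437-120571536, plus strand) and Rpl35 (chr2:39005112-39005211, minus strand) show a pyrimidine start, in capitals.
Rpl14: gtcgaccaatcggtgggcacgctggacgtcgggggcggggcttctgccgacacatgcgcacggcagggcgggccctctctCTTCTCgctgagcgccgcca
Rpl35: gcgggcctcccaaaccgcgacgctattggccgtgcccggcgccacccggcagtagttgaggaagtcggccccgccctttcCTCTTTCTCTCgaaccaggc
The core members Rpl4 and Rps16 had neither the ETS word nor a pyrimidine start. Of the 5 paralogs or pseudogenes with windows, 2 (40%) held the ETS word in their 300 bases and 1 (20%) had a pyrimidine start. These shares are close to those of the core members. For comparison, the window of the paralog Rpl10l (chr12:66284382-66284481, minus strand) holds neither.
Rpl10l: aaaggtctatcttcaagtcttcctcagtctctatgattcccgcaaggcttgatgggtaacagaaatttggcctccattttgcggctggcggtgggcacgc
These are matches of letters in windows that depend on the annotated start, and no binding or translation was measured. The paralog Rpl39l held the ETS word in its 300 bases but did not follow the core members between arrays (median correlation 0.0083). Rps16, with neither feature, did follow them (0.75). Whether these words go with variation between arrays was not tested.

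The deposited log2 values did not share a common distribution. The median over all transcript probe sets, called array brightness here, ran from 5.32 to 6.45. Wild-type vehicle arrays were at 5.32 to 5.83 and wild-type sildenafil arrays, without overlap, at 5.87 to 6.19. Marfan vehicle arrays were at 5.80 to 6.13 and Marfan sildenafil arrays at 5.73 to 6.45. Values below are therefore quantile-normalized over the 20 arrays unless said otherwise, which sets the median gene's difference near 0 in each comparison. On the deposited values the median gene was itself higher by 0.28 in wild-type lungs with sildenafil, by 0.25 in Marfan lungs on vehicle and by 0.16 for sildenafil averaged over genotype. Lung identity was plain, with the mean of 7 alveolar type 2 markers between 11.73 and 12.10 on every array. Marfan sildenafil array 9 stood apart in its mixture of cells, with the mean of 10 cardiac muscle markers at 5.21 (7.47 to 8.28 on the other 19 arrays), that of 8 endothelial markers at 9.13 (9.96 to 10.44) and that of 7 alveolar macrophage markers at 9.11 (7.63 to 8.46).

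The 51 core members gave strong signals throughout. Their means over the arrays ran from 8.85 for Rpl27 to 12.46 for Rps23. Levels of different probe sets are not compared further, since each has its own probes. The pooled SD between arrays of a group had a median of 0.15 log2 units over the 57 members. It was smallest for the large-subunit gene Rpl28 (0.057), whose values stayed between 12.04 and 12.31 on all 20 arrays, and largest for the paralog Rpl3l (0.39).

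The core members varied together between arrays of the same group. After removal of the group means, the median Pearson correlation over the 1275 pairs of core members was 0.70 over 20 arrays, and 82.7% of pairs exceeded 0.5. Between a core member and any gene of the table the median was -0.0075, with 5.47% above 0.5. The 264 other genes within the interquartile range of core levels, from 10.47 to 11.54, correlated with core members at a median of -0.12 and with each other at 0.028. These are descriptions over shared arrays, and pairs are not independent. They were not repeated with an array left out or with brightness removed. The core mean was 11.41 on wild-type vehicle array 18 (group mean 11.14) and 11.21 on Marfan vehicle array 21 (group mean 11.02). How far the correlations rest on these arrays was not tested. Rps15a, Rpl39 and Rpl38 followed the other core members most closely, each with a median correlation of 0.83. Rpl4 (0.29) and Rpl7 (0.44), both large-subunit proteins, followed them least among the core.

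**Figure D1:**
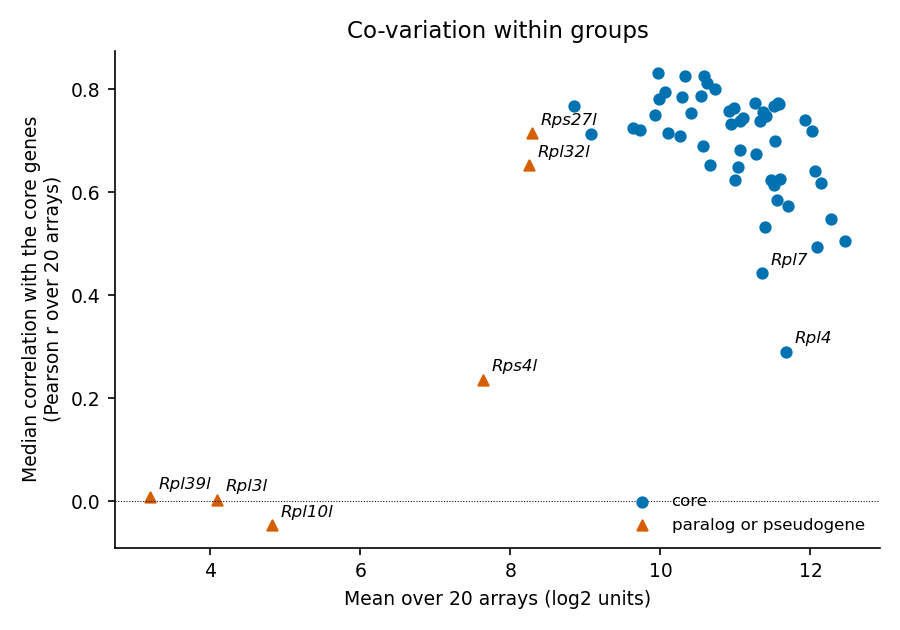
Each point is 1 of the 57 genes, with its mean quantile-normalized log2 value over 20 arrays on the x axis and its median Pearson correlation with the core genes, after removal of group means, on the y axis. Core genes (circles) lie between 0.29 and 0.83; of the paralogs and the pseudogene (triangles), Rpl39l, Rpl3l and Rpl10l lie near 0, Rps4l at 0.24, Rpl32l at 0.65 and Rps27l at 0.72.

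In wild-type lungs all 57 members had a lower mean with sildenafil than with vehicle. The mean over the members was 10.43 on the lowest, 10.59 at the median and 10.89 on the highest of the 6 vehicle arrays, and 10.49, 10.41, 10.42 and 10.21 on sildenafil arrays 1, 4, 5 and 6. The ranges overlapped only between vehicle array 14 (10.43) and sildenafil array 1 (10.49). The median member difference was -0.24 (all genes -0.0018), and the 264 other genes at similar levels had a median of 0.039. In bulk lung, fewer cells rich in these messages and less message per cell cannot be told apart. On the deposited values the members' median was -0.03, with 40 of 57 lower. The median gene was 0.28 higher there, so the members lay 0.31 below it. Members also rose less with array brightness than the median gene on those values (below). The part of brightness in this gap was not tested.

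No member passed limma's adjusted threshold in that comparison, where 0% of all genes did (0 of 19505). At unadjusted p under 0.05, 36 members were lower, or 63.2%, against 4.45% of all genes. Members varied together between arrays, so this count and those below do not count independent genes. The lowest adjusted p among members was 0.361. Brightness did not overlap between the wild-type groups, so an effect of brightness and one of sildenafil cannot be told apart there. With array brightness as a covariate the median became -0.13 and 1 member stayed under the unadjusted threshold. Leaving out wild-type sildenafil array 6, the lowest of its group, left 11 members under it (median -0.18), and leaving out vehicle array 18, the highest and the dimmest, left 17 (median -0.18).

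**Figure D2:**
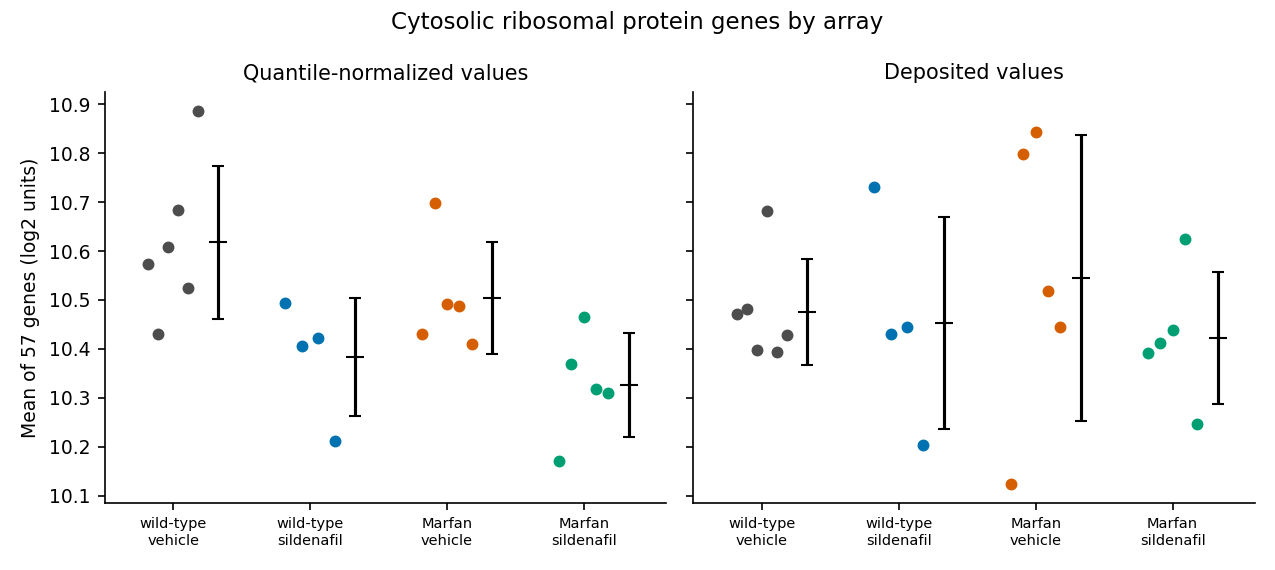
Points are the mean log2 value of the 57 genes on each array, by group in order of array number, after quantile normalization (left) and as deposited (right); crosses with bars give the group mean ± SD (n = 6, 4, 5 and 5). On the left the sildenafil groups lie lower (10.38 ± 0.12 and 10.33 ± 0.11) than the vehicle groups (10.62 ± 0.16 and 10.50 ± 0.11), while on the right all 4 groups overlap and the Marfan vehicle mean is the highest (10.55 ± 0.29).

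Among small-subunit members Rps20, a protein of the head of the small subunit, was the clearest. Its wild-type vehicle values ran from 10.99 through a median of 11.21 to 11.49, and its sildenafil values were 10.92, 10.96, 10.88 and 10.79. All 4 sildenafil arrays lay below all 6 vehicle arrays, and the difference was -0.34 (SE 0.099, adjusted p = 0.361). In Marfan lungs Rps20 was at 11.11, 11.17, 11.00, 11.05 and 10.86 on vehicle and at 10.49, 10.79, 10.98, 10.69 and 10.75 on sildenafil. Here the groups overlapped through sildenafil array 10 (10.98), and the difference was -0.30 (SE 0.097, adjusted p = 0.677). Averaged over genotype it was -0.32 (SE 0.069, adjusted p = 0.0935), the lowest adjusted p of any member.

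Rpl37, a zinc-binding protein of the large subunit, ran from 11.03 through 11.30 to 11.52 on wild-type vehicle and was at 11.07, 10.93, 11.06 and 10.72 on wild-type sildenafil. Only vehicle array 14 (11.03) fell among the sildenafil values. The difference was -0.34 in wild-type lungs (SE 0.10, adjusted p = 0.361) and -0.27 in Marfan lungs (SE 0.098, adjusted p = 0.711). Its Marfan values were 11.25, 11.41, 11.07, 11.11 and 11.03 on vehicle and 10.74, 11.03, 11.03, 10.81 and 10.93 on sildenafil, with the ranges meeting near 11.03. Averaged over genotype the difference was -0.30 (SE 0.070, adjusted p = 0.11).

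Rps7, whose protein is needed to mature the small-subunit RNA, ran from 11.38 through 11.53 to 11.87 on wild-type vehicle and was at 11.33, 11.13, 11.44 and 11.26 on wild-type sildenafil. The ranges overlapped through sildenafil array 5. Its Marfan values were 11.58, 11.38, 11.47, 11.57 and 11.36 on vehicle and 10.97, 11.33, 11.44, 11.08 and 11.15 on sildenafil. Only sildenafil array 10 reached into the vehicle range. The differences were -0.27 (SE 0.10) in wild-type and -0.28 (SE 0.10) in Marfan lungs. Neither passed the adjusted threshold (adjusted p = 0.456 and 0.706).

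Rpl7, an RNA-binding protein of the large subunit, ran from 11.40 through 11.46 to 11.64 on wild-type vehicle and was at 11.31, 11.14, 11.29 and 11.17 on wild-type sildenafil. The groups did not overlap, at a difference of -0.27 (SE 0.078, adjusted p = 0.361). In Marfan lungs its difference was -0.15 (SE 0.077, adjusted p = 0.756). At the other end, Rpl28 differed by -0.079 (SE 0.069) and Rpl6 by -0.058 in wild-type lungs. The 21 large-subunit members under unadjusted p of 0.05 were 60% of 35, and the 15 small-subunit members 68.2% of 22. The medians were -0.21 and -0.27, and the difference between subunits was not tested.

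**Figure D3:**
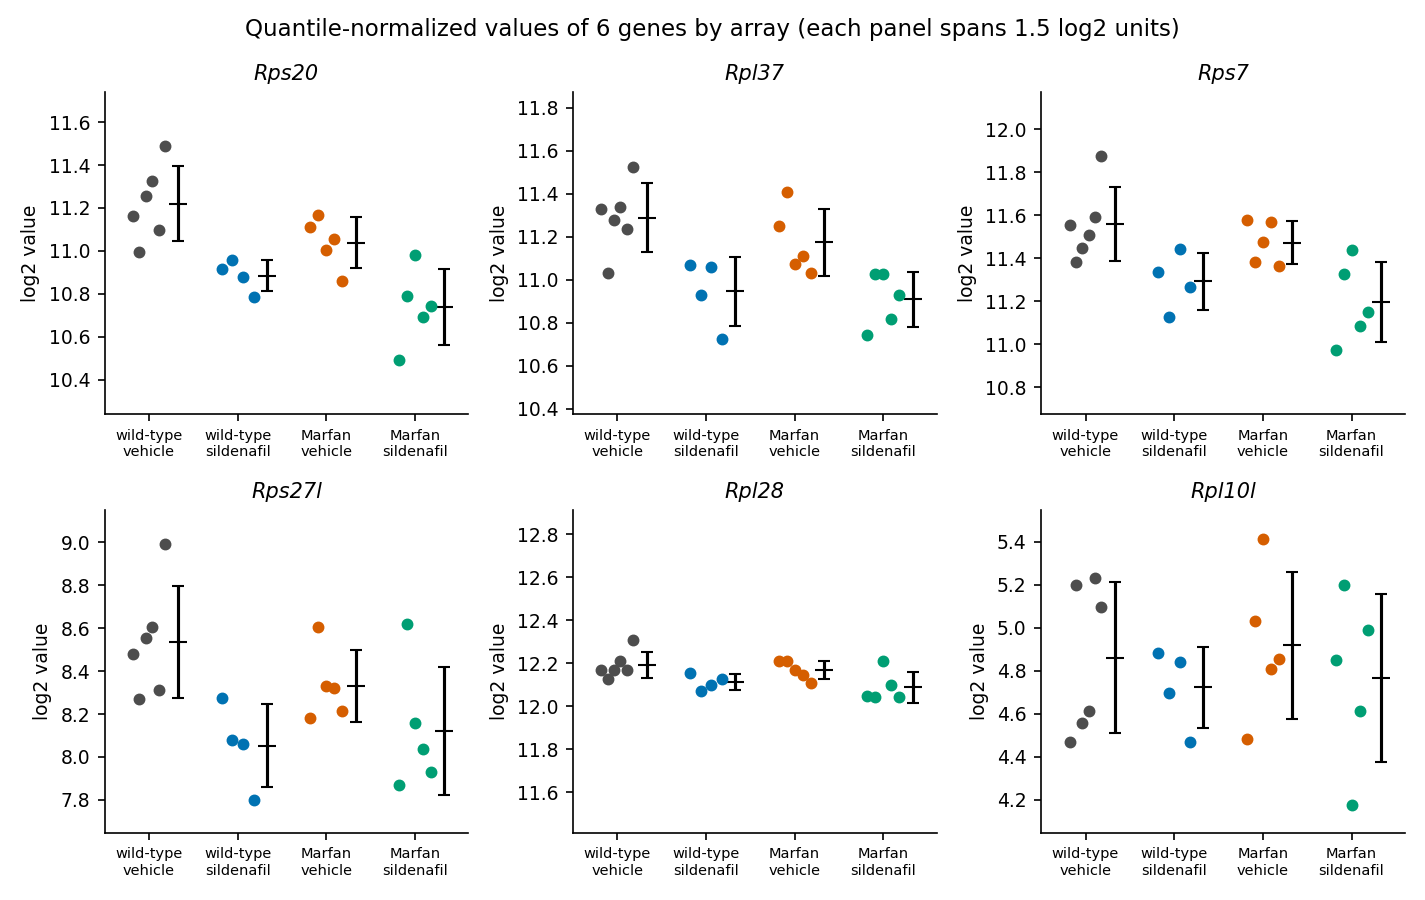
Each panel gives 1 gene's quantile-normalized log2 value on each array, by group in order of array number, with group mean ± SD (n = 6, 4, 5 and 5) at the right of the points; every panel spans 1.5 log2 units. Rps20 does not overlap between the wild-type groups, Rpl37, Rps7 and Rps27l overlap little, Rpl28 stays between 12.04 and 12.31, and Rpl10l spreads from 4.18 to 5.42 with no separation.

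In Marfan lungs 56 of 57 members had a lower mean with sildenafil, at a median of -0.16 (all genes -0.0067). The mean over the members was 10.43, 10.70, 10.49, 10.49 and 10.41 on vehicle arrays 20 to 24 and 10.17, 10.37, 10.46, 10.32 and 10.31 on sildenafil arrays 8 to 12. Sildenafil array 10 alone lay within the vehicle range. No member passed the adjusted threshold, where 0% of all genes did, and the lowest adjusted p among members was 0.677. At unadjusted p under 0.05, 13 members were lower (22.8%) against 3.41% of all genes. That count was 22 without array 10, 8 without array 8 and 18 without array 9, the one that stood apart in its markers (median -0.19, 53 lower). Brightness as a covariate left it at 13, with a median of -0.16. On the deposited values 55 of 57 were lower, at a median of -0.13 with the median gene at 0.045.

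The lowest unadjusted p after Rps20 in that comparison belonged to Rpl36a, a large-subunit protein at the site where spent tRNA leaves. Its values were 10.55, 10.94, 10.72, 10.65 and 10.47 on Marfan vehicle and 10.16, 10.46, 10.54, 10.34 and 10.17 on Marfan sildenafil. Sildenafil array 10 alone overlapped the vehicle range. The difference was -0.33 (SE 0.12, adjusted p = 0.706). By p, Rps7 came next and then Rps28, at -0.30 (SE 0.11, adjusted p = 0.711). Rps14, which binds the small-subunit RNA near the platform, was lower by similar amounts in both genotypes (-0.37 in wild-type and -0.34 in Marfan lungs). The lone member with a higher mean was the paralog Rpl39l (0.12, SE 0.21), whose signal was near background.

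The sildenafil differences of both genotypes are compared by the interaction, the Marfan difference minus the wild-type one. It was above 0 for 42 of 57 members, at a median of 0.044, but its median was -0.09 on the deposited values, where the median gene was at -0.24, and -0.033 with brightness as a covariate. Centring the deposited values on the array median moved it the other way, to 0.28 with the median gene at 0.13. Leaving out 1 array at a time moved the median between -0.0028 (without wild-type vehicle array 18) and 0.095 (without Marfan vehicle array 21). By limma 0 members passed the adjusted threshold (0% of all genes did), and 0 were lower at unadjusted p under 0.05, against 2.51% of all genes. No member was higher at that p either. The lowest p for an interaction among core members was that of Rpl29 (0.16, SE 0.12, adjusted p = 0.984), with an opposite sign on the deposited values (-0.035). A p that misses the threshold does not show that both genotypes responded alike.

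Averaged over genotype, all 57 members had a lower value with sildenafil, at a median of -0.21 (all genes -0.0034; level-matched genes 0.016). The adjusted threshold was passed by 0 members and by 0% of all genes. At unadjusted p under 0.05, 42 members were lower, or 73.7%, against 5.73% of all genes. This count stayed between 34 and 46 when any 1 array was left out, and all 57 were lower each time. It was 41 without Marfan sildenafil array 9 (median -0.22). Members varied together, so a shift on a few arrays moves most of them and these counts are not of independent genes. With the mean of 3 Y-linked genes as a covariate, as sex is not labelled, the count was 43 (median -0.21). The median sildenafil difference of those 3 genes was 0.52 averaged over genotype, 0.12 in wild-type and 0.92 in Marfan lungs. The Marfan value ran from 0.13 to 1.98 with 1 array left out. How the sexes were spread over the groups is not known. With brightness as a covariate 57 were lower at a median of -0.15, and 14 were under the unadjusted threshold. On the deposited values 48 were lower at -0.08, which is 0.23 below the median gene. The part of brightness in that gap was not tested.

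With arrays weighted by their quality in limma, 3 members passed the adjusted threshold in the averaged comparison. They were Rps20 (-0.31, adjusted p = 0.0363), Rpl37 (-0.30, adjusted p = 0.0386) and Rps27l (-0.37, adjusted p = 0.0419), among 68 genes of the whole table. Rps20, Rpl37 and Rps27l also passed without Marfan sildenafil array 9 (adjusted p = 0.0344, 0.0354 and 0.0363; 74 genes in all). Rps20 alone passed without Marfan sildenafil array 10 (-0.35, adjusted p = 0.0449; 25 genes in all). Without weights, the lowest p after Rps20 and Rpl37 belonged to Rps14 (-0.36, SE 0.092, adjusted p = 0.158) and Rps7 (-0.27, SE 0.071, adjusted p = 0.16). Rps19, the gene most often mutated in Diamond-Blackfan anaemia, had one of the larger differences (-0.36). Rpl6 and Rpl10a had the smallest, at -0.058 and -0.057.

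**Figure D4:**
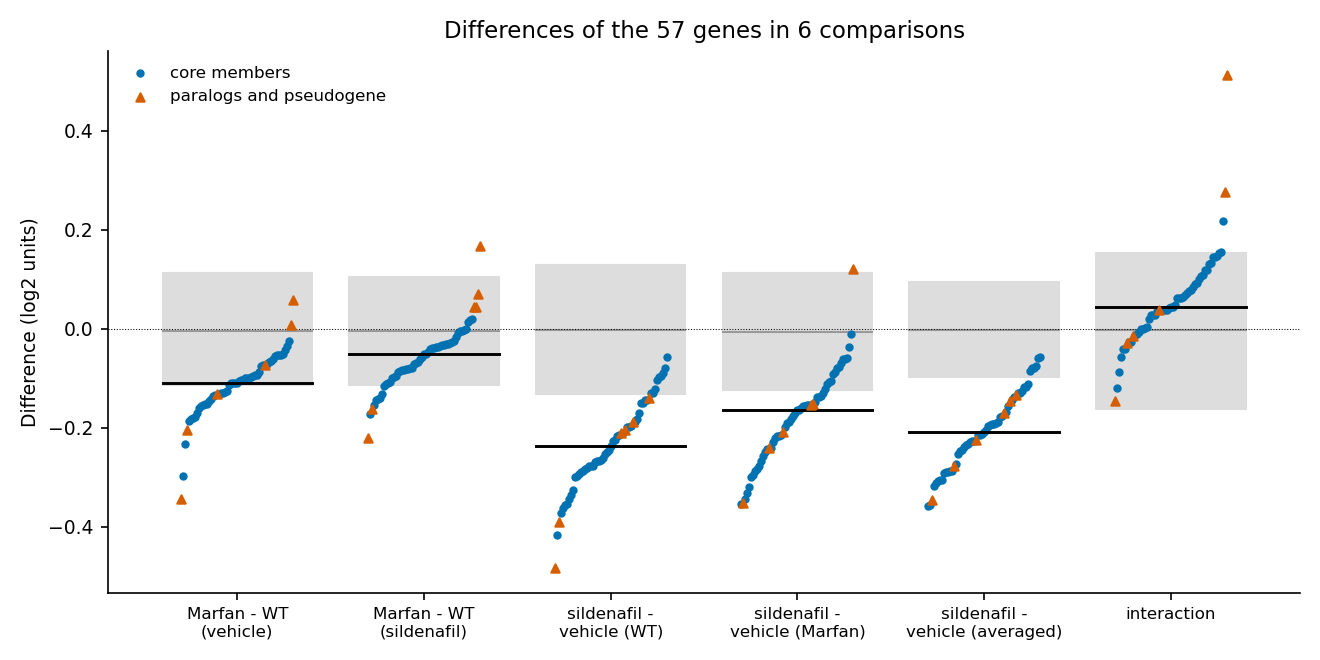
Points are the differences of the 57 genes in 6 comparisons (log2 units, sorted within each), with a black line at their median; grey boxes hold the middle 50% of all 19505 genes and a grey line their median. The medians of the genes lie at -0.11, -0.05, -0.24, -0.16, -0.21 and 0.04 from left to right; on the deposited values the first turns to 0.06 and the last to -0.09.

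The Marfan genotype gave smaller differences. Under vehicle 55 of 57 members had a lower mean in Marfan lungs, at a median of -0.11 (all genes -0.0048), but on the deposited values 5 were lower and the median was 0.06, with the median gene at 0.25. Of the members, 0 passed the adjusted threshold (0% of all genes) and 2 were lower at unadjusted p under 0.05 (3.51%), close to the 2.78% of all genes. That count became 11 without Marfan vehicle array 21 and 0 without wild-type vehicle array 18. With brightness as a covariate the median was -0.031, with 34 of 57 lower. The 2 genes were Rpl29, a large-subunit protein also known to bind heparin, and Rps13, a small-subunit protein that contacts the large subunit. Rpl29 ran from 10.30 through 10.37 to 10.64 on wild-type vehicle and was at 10.05, 10.42, 10.23, 10.19 and 10.25 on Marfan vehicle, overlapping through array 21 alone. Its difference was -0.19 (SE 0.083, adjusted p = 0.789), and 0.035 on the deposited values. Rps13 overlapped more, at -0.23 (SE 0.11, adjusted p = 0.79). Rpl4 differed by -0.14 (SE 0.071, adjusted p = 0.79), and by 0.024 as deposited.

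Under sildenafil the Marfan minus wild-type median was -0.05, with 49 of 57 lower; 0 members passed either threshold, against 0% of all genes adjusted and 2.03% lower at unadjusted p. Without wild-type sildenafil array 6 the median was -0.11 and without array 1 it was -0.019. Averaged over treatment it was -0.08, with 55 of 57 lower, but 0.019 on the deposited values. Adjusted calls were 0 (0% of all genes), and 3 members were lower at unadjusted p under 0.05 (5.26%, against 2.55% of all genes). Those were Rps20 (-0.16, SE 0.069, adjusted p = 0.918), Rps13 (-0.18, SE 0.082) and Rpl14 (-0.12, SE 0.058). The comparisons in these paragraphs share arrays and are not independent of each other.

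The paralogs split by signal. Rpl39l, known from testis, averaged 3.19, within the 2.56 to 3.28 spanned by the arrays' medians of 23 background probe sets (on the deposited scale). Rpl3l, the form of striated muscle, averaged 4.09, and Rpl10l, a testis form encoded by a retrogene, 4.82. Both means lay below the highest background probe set of every array (5.09 to 6.85). Rpl10l was at 4.48, 5.03, 5.42, 4.81 and 4.86 on Marfan vehicle and at 4.85, 5.20, 4.18, 4.61 and 4.99 on Marfan sildenafil, which overlapped fully. None of these 3 followed the core members between arrays (median correlations 0.0083, 0.0033 and -0.046).

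Rps27l, a p53-inducible paralog of Rps27, was well expressed and followed the core members (0.72). It ran from 8.27 through 8.52 to 8.99 on wild-type vehicle and was at 8.27, 8.08, 8.06 and 7.80 on wild-type sildenafil, so the ranges met at 8.27. Its wild-type difference of -0.48 (SE 0.14, adjusted p = 0.361) was the largest of the 57 members. In Marfan lungs it was at 8.18, 8.61, 8.33, 8.32 and 8.22 on vehicle and at 7.87, 8.62, 8.16, 8.04 and 7.93 on sildenafil. Sildenafil array 9 (8.62) stood at the top of both groups, and the difference was -0.21 (SE 0.14, adjusted p = 0.814). Without that array it was -0.33 (SE 0.13, adjusted p = 0.653), and the interaction of Rps27l went from 0.28 to 0.15. The genes of the table most alike to Rps27l over the 20 arrays were Ndufa2 and Hspe1 (both r = 0.95) and Atp5mpl (r = 0.94), which code for mitochondrial proteins.

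Rpl32l averaged 8.25 and was most alike to Rps10 and Gng5 (both r = 0.89) and to Rpl35a (r = 0.88). Its averaged sildenafil difference was -0.23 (SE 0.11, adjusted p = 0.446). The pseudogene Rps4l averaged 7.64, followed the core less (0.24) and was most alike to Med26 (r = 0.82). On Marfan sildenafil it was at 7.25, 7.29, 7.20, 7.26 and 7.90, with array 12 far above the others, and on Marfan vehicle at 7.25, 8.39, 8.00, 7.41 and 7.59. Its difference between these groups was -0.35 (SE 0.19, adjusted p = 0.763). The probes of Rps4l, Rpl32l and Rps27l may also bind messages of the parent genes, which was not tested.

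The members' level went with array brightness within groups. With the 4 group means kept in the model, the slope of quantile-normalized value on deposited array median was below 0 for 52 of 57 members, at a median of -0.26 log2 units per unit of brightness (all genes 0.0055, level-matched genes 0.14); on the deposited values all 57 slopes were above 0 at a median of 0.42, with the median gene at 0.82. By limma 0 members passed the adjusted threshold, as did 0.0359% of all genes (7 of 19505). At unadjusted p under 0.05, 12 members had a slope below 0 (21.1%), against 5.84% of all genes. That count was 5 without wild-type vehicle array 18 (median -0.14), and 20 without wild-type sildenafil array 1 or Marfan vehicle array 20. The mean of all probe sets in place of the median gave -0.41, with 27 members under that p.

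Rpl19, a large-subunit protein that reaches into the small subunit, had the lowest p, with a slope of -0.59 (SE 0.14, adjusted p = 0.106) that was 0.065 on the deposited values. Its lowest values were 11.20 and 11.25, on Marfan sildenafil arrays 8 and 11, the 2 brightest (6.20 and 6.45). Its highest, 11.91, was on wild-type vehicle array 18, the dimmest (5.32). Rps7 (-0.56), Rpl35 (-0.53), Rps28 (-0.52) and Rpl11 (-0.45) followed, and none passed. As deposited, the slopes of Rps7, Rpl35 and Rpl11 were 0.094, 0.095 and 0.18. Rpl4 (0.017) and Rpl10a (0.066) had slopes near 0, which were -0.12 and -0.018 without Marfan sildenafil array 9. Rpl3l had the highest (0.80, SE 0.44, adjusted p = 0.475), at 0.38 without that array. The slopes of the 10 cardiac muscle markers had a median of 1.52 and those of the 8 endothelial markers 0.62, but both rested on Marfan sildenafil array 9, without which they were 0.19 and -0.09. The members' median slope was -0.28 without that array.

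**Figure D5:**
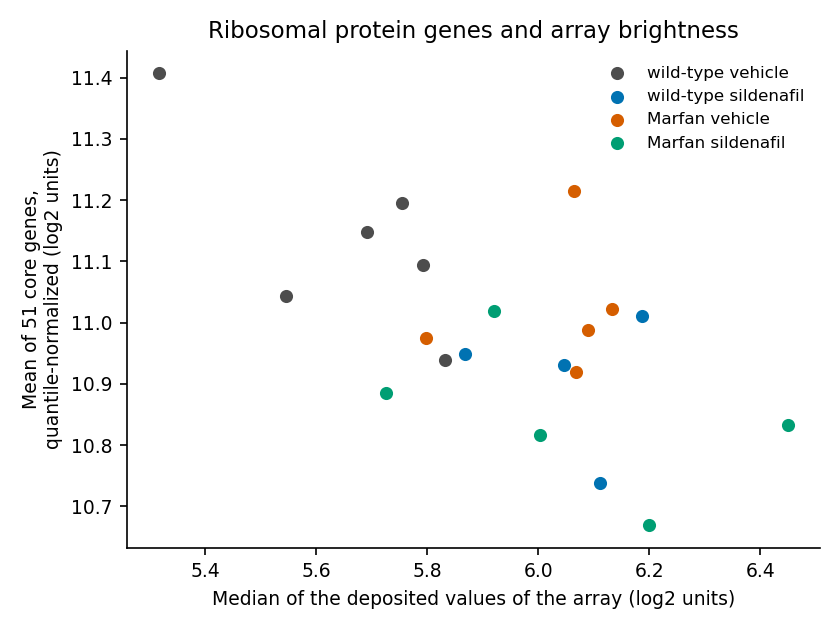
Each point is an array, with the median of its deposited values (brightness, log2 units) on the x axis and the mean of its 51 core genes after quantile normalization on the y axis, coloured by group. The dimmest array (5.32) has the highest mean (11.41) and belongs to the wild-type vehicle group, and the lowest mean (10.67) is on a Marfan sildenafil array at 6.20; on the deposited values the slope has the opposite sign.

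Genes that share the members' role were read from lists. None of the listed genes passed the adjusted threshold in the averaged sildenafil comparison over all 20 arrays, where 0% of all genes did. Without Marfan sildenafil array 9, Rpsa (-0.40, SE 0.091, adjusted p = 0.0464) and Nop10 (-0.30, SE 0.060, adjusted p = 0.0309) passed it by limma, among 74 genes of the whole table. The 4 measured core proteins named outside the rule were all lower, at a median of -0.22. These were Rpsa, the laminin receptor precursor (-0.38, SE 0.094, adjusted p = 0.13), Fau, which carries a small-subunit protein behind a ubiquitin-like one (-0.25, SE 0.071), and the stalk proteins Rplp1 (-0.18) and Rplp0. The paralogs Rpl22l1, Rpl36al and Rpl7l1 were at -0.26, -0.21 and -0.15. Of 15 translation factors and related genes with TOP messages 13 were lower, at a median of -0.12. At unadjusted p under 0.05 there were 7, where 5.73% of all genes were lower at that p. Naca, a chaperone at the ribosome exit, was at -0.23 (SE 0.064, adjusted p = 0.168), and the elongation factor subunits Eef1d and Eef1b2 at -0.25 and -0.20.

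Of 76 mitochondrial ribosomal protein genes, 72 were lower, at a median of -0.15. At unadjusted p under 0.05 there were 25, where 5.73% of all genes were lower at that p. Mrpl48 had the lowest p among them (-0.30, SE 0.071, adjusted p = 0.116). In wild-type lungs 73 of the 76 were lower at a median of -0.20, and in Marfan lungs 62 at -0.11. The 23 ribosome biogenesis genes divided evenly, 12 lower at a median of -0.057. Nop10, a small protein of the pseudouridylation complex, was at -0.31 (SE 0.060, adjusted p = 0.0935), while Ncl, the nucleolar protein nucleolin, was at 0.15 (SE 0.084, adjusted p = 0.554). Of 14 genes for mTOR and MYC control of ribosome production, 7 were lower and 7 higher (median 0.014). Larp1, the repressor of TOP messages, was at 0.28 (SE 0.085, adjusted p = 0.193), and the mTOR complex subunit Rptor at 0.18 (SE 0.097, adjusted p = 0.529).

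Markers of other cell types showed no single direction with sildenafil. In wild-type lungs 7 of 8 endothelial markers were higher at a median of 0.27 (their mean ran from 9.96 to 10.21 on vehicle and from 10.29 to 10.44 on sildenafil arrays), and this median stayed between 0.24 and 0.29 when any 1 array was left out. The 8 lymphocyte markers had a median of -0.11, which was -0.026 without wild-type vehicle array 18 (mean of 7.55 to 8.40 on vehicle and 7.82 to 8.14 on sildenafil arrays). The wild-type medians were -0.096 for the 10 cardiac muscle markers, -0.09 for the 7 alveolar macrophage markers, -0.03 for the 7 alveolar type 2 markers (0.035 without wild-type sildenafil array 6) and -0.058 for the 8 skeletal muscle markers (0.050 without wild-type vehicle array 18).

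In Marfan lungs several marker medians turned on sildenafil array 9. With and without it they were -0.23 and 0.06 for the endothelial, -0.23 and 0.28 for the cardiac muscle, -0.10 and 0.018 for the lymphocyte and 0.15 and -0.18 for the alveolar macrophage markers. Those of the 2 erythroid markers were -0.83 and -0.58, and those of the skeletal muscle markers 0.089 and 0.19. The members' median was -0.16 with that array and -0.19 without it. None of these markers passed the adjusted threshold in either genotype, where 0% of all genes did. The part of these cells in the members' wild-type differences was not tested.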

How the data were processed

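Affymetrix arrays measured whole-lung RNA, 700 pg per sample with an integrity number above 8.5, per the labels' protocols. The authors deposited log2 values from Affymetrix Expression Console with RMA (background correction, normalization and summary of probes), per the submitters' processing notes; the versions are not given in the sources. Of 29129 entries 22206 were transcript probe sets, and 19572 of these had 1 symbol in the platform annotation. The probe set with the highest mean stood for each of 19505 genes.

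Because deposited array medians differed, values were quantile-normalized over the 20 arrays (limma 3.58.1, R 4.3.3). The 4 groups were fitted together with lmFit and eBayes with a variance trend (16 residual degrees of freedom), giving 7 comparisons and a slope on array brightness. P-values are two-sided, from limma, adjusted by Benjamini-Hochberg over all genes at 0.05. Precision is limited by how few arrays each group has. The fit was tested on simulated data with noise independent between genes, which does not cover genes that vary together, as the members did.

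The members, lists and tests were chosen with earlier results of these data known. Members named with values are, per comparison, up to 4 per direction with the smallest p (5 for the slope), the 4 highest and lowest by mean, the 4 most variable, and the paralogs; from other lists, up to 3 genes per comparison. Rps19, Rpl6, Rpl27, Rpl38, Rpl39, Rps15a and Rpl41 were added, and Rpl32l counted as a paralog, after values were seen. Alternatives were the deposited values, centring on the array median, averaged probe sets, brighter genes only, no variance trend, array weights, brightness or Y-linked genes as a covariate, fits of single pairs of groups, other member sets, the array mean as brightness, and leaving out each array; the gene lists with each array left out, and all members without Marfan sildenafil array 9, were added after seeing the data.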

Additional observations from a re-analysis of the deposited data

Results flagged for a closer look

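Over 104 sets of values, each a group of 4 to 6 arrays and 1 member or member mean, 3 had an array far from the rest of its group. Chance was taken to give about 1 in 20 sets, and 3 is not more than that. The sets share arrays and genes that vary together, so the count cannot say whether these flags are due to chance. The mean over the 57 members was 10.7 on Marfan vehicle array 21, against 10.41 to 10.49 on the other 4 arrays of the group, and the gap was 0.718 of the group's range. The mean over the large-subunit members, which are part of the 57, was 10.57 on that array, against 10.31 to 10.39 (0.717). The pseudogene Rps4l was at 7.898 on Marfan sildenafil array 12, against 7.195 to 7.286 on the others (0.871).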

How the results depend on the processing

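No paired analysis was possible because the groups share no array numbers. On the deposited values without further normalization the members' median was 0.065 for Marfan vehicle minus wild-type vehicle, -0.029 for sildenafil in wild-type lungs, -0.090 for the interaction, -0.078 for sildenafil averaged over genotype and 0.42 for the brightness slope. There Rpl29 and Rpl4 turned to 0.035 and 0.024 (Marfan under vehicle), Rpl29 and Rpl7 to -0.035 and -0.024 (interaction), and the slopes of Rpl19, Rps7, Rpl11 and Rpl35 to 0.065, 0.094, 0.18 and 0.095. In that fit 6 members were called for the slope, among 10197 genes, since the brightness itself was not removed. After centring on the array median, the medians were -0.31 (Marfan under vehicle), -0.43 (sildenafil in wild-type), 0.28 (interaction) and -0.58 (slope). Array weights called 3 members for sildenafil averaged over genotype; leaving out 1 array called 0 to 3. The cause of that change was not tested. The other counts of called members stayed at 0 under every alternative run. The other medians stayed within the pooled spread, for group comparisons the SD of the member mean between arrays of a group. A median smaller than that spread can change sign within it. That of Marfan averaged over treatment did so on the deposited values. The array number per group, 4 to 6, limits what could be called.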
